A study of Mus musculus with 9 samples.

Results

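The genes described here are 8 hormones and growth factors that the liver secretes: Fgf21, Gdf15, Angptl4, Angptl8, Inhbe, Inhba, Fst and Tsku. They were taken by name from the deposited liver RNA sequencing tables, where all 8 were found among 17046 listed genes. The 9 liver libraries came from wild-type mice in 3 groups of 3, and every mouse had received an adeno-associated virus of serotype AAV8 by tail vein injection. The TBG promoter, which is active in hepatocytes, drove the insert of that virus. The pair-fed group carried the control virus (a cloning site with a 3×FLAG tag and no gene) and took a control diet and a maltose binge. The ethanol-fed group carried the same control virus and took an ethanol diet and an ethanol binge. The third group took the same ethanol diet and binge and carried a virus encoding FLAG-tagged Mettl3, the catalytic subunit of the nuclear m6A RNA methyltransferase; its libraries are called Mettl3 livers below. The diet began 3 weeks after the virus and lasted 10 days. Every group carried a virus, so no liver is free of it, and no pair-fed group received the Mettl3 virus. Age and sex are not given in the sources used here. Whether replicates are separate animals is not stated, so the p-values measure the spread between these samples, which may be technical.

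Hepatokines are liver hormones that act on the liver itself, fat, muscle or brain. FGF21 signals through FGF receptors together with the co-receptor beta-klotho, lowers sweet and alcohol preference and is induced by fasting, sugar, alcohol and cell stress. GDF15 signals through the brainstem receptor GFRAL and reduces food intake, and its transcription rises in cells under stress. ANGPTL8 and ANGPTL4 restrain lipoprotein lipase, the enzyme that clears triglyceride from the blood. Inhbe and Inhba encode activin beta chains, which are ligands of the TGF-beta family, and Fst encodes follistatin, which binds activins and holds them inactive. Tsku encodes Tsukushi, a small leucine-rich secreted protein.

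Each library held between 34656480 and 38159563 reads over the listed genes, and between 35 and 10937 reads lay behind a member's value in 1 library. Values are FPKM, which divides reads by the length of the gene and the size of the library, and are comparable between genes per length. Mettl3 itself measured 3.97, 3.10 and 3.38 FPKM in the pair-fed livers, 5.44, 4.86 and 3.78 in the ethanol-fed livers and 38.5, 25.0 and 33.3 in the Mettl3 livers, in accord with the labels. Among markers of the tissue, 9 of 10 hepatocyte genes were listed. Their summed level ran from 55305 to 60950 FPKM in pair-fed, 46242 to 62921 in ethanol-fed and 41037 to 49891 in Mettl3 livers. The Mettl3 range thus lay below the pair-fed range. Most of the sum was Alb, which averaged 44062, 42740 and 34029 FPKM in the same order of groups. Livers were measured as bulk tissue, in which fewer cells of a type and less RNA per cell cannot be told apart.

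Before the values, the promoters of the 3 members with a C/EBP-ATF response element core (TGATGNAA, the composite site read by ATF4 and CHOP with C/EBP partners) are shown, because these factors act on stress-induced hormone genes. RefSeq (GRCm38.p6) gave the 250 bases before the start site for 6 of the 8 members, and both strands were searched. Capitals mark the matched letters, written 5′ to 3′ on the gene's strand, and TTGCATCA is TGATGCAA read on the opposite strand.
Fgf21: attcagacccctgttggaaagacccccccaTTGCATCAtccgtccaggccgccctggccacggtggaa
Angptl8: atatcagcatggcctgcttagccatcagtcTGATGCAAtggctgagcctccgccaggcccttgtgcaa
Inhbe: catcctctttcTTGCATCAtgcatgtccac
The Fgf21 stretch lies at chr7:45615592-45615659 on the minus strand, with the match 139 to 132 bases before the start site. The Angptl8 stretch lies at chr9:21835350-21835417 on the plus strand, with the match 130 to 123 bases before the start site. The Inhbe stretch lies at chr10:127352011-127352040 on the minus strand, with the match 181 to 174 bases before the RefSeq start site, and GENCODE M21 places it inside a longer first exon of Inhbe. TGATGNAA was present in 3.91% of 27025 genes with such a window. An E-box, CACGTG, occurred in the windows of Fgf21 and Gdf15 and in 6.86% of genes. A TATA box, TATAAA, occurred in the windows of Fgf21 and Inhba and in 14.3% of genes. In Fgf21 the E-box and the TATA box sit close to the start site. Both lie in this stretch at chr7:45615505-45615570, where capitals mark only the E-box.
Fgf21: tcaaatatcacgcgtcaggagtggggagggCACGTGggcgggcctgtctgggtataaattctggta
The Gdf15 match lies at chr8:70632161-70632190 on the minus strand, 83 to 78 bases before the inner of its RefSeq start sites, where GENCODE M21 has the first exon of a longer Gdf15 transcript.
Gdf15: cacagggcagggCACGTGtgagcatccagt
The full cAMP response element TGACGTCA (1.77% of genes) and the PPAR direct repeat (0.0407% of genes) were found in no window of these 6 members, which says only that these letters are absent there. The matches are descriptions of sequence, and no binding was measured.

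The question of the first comparison was how the ethanol diet and binge changed these transcripts under the control virus. Ethanol-fed livers had more Fgf21, Gdf15, Inhbe and Fst than pair-fed livers, and no member was called lower, beside 26.0% of all genes tested. The test was limma on log2(FPKM + 1), with p-values adjusted over all 10064 genes tested by the Benjamini-Hochberg method and called below 0.05; fold changes below are on that log2 scale, which understates changes of low genes. A call of higher was made for 4 of 8 members, beside 10.0% of all genes tested. Fst entered the test only through its ethanol-fed values, so its call could go only 1 way. The median fold change of the members was 1.18 and that of all genes was -0.14. In the authors' deposited table the same 4 members were higher at a q-value below 0.05, beside 14.0% of the genes listed there. Scaling the libraries by median ratios moved the median of all genes from -0.14 to 0.01 in this comparison, from -0.04 to 0.02 for Mettl3 against control virus and from -0.18 to 0.04 for Mettl3 against pair-fed livers. Percentages of all genes given beside list counts are those without scaling. After scaling, 1796 of 10032 genes tested were called higher with ethanol and 1663 lower, so scaled list counts stand beside those.

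The second comparison asked how the Mettl3 virus changed the ethanol-fed liver. Fgf21, Gdf15 and Angptl8 had lower values in all 3 Mettl3 livers than in any ethanol-fed liver with the control virus. With limma, 0 of 8 members passed the adjusted threshold, where 1 gene of 9706 tested was called, or 0.0103%, and that gene was Mettl3. At an unadjusted p below 0.05 there were 3 members, the same ones, beside 7.45% of all genes tested, and limma-voom on recovered reads called 0 members. Groups that do not overlap in this direction occurred in 6.62% of genes tested. In the authors' deposited table these 3 members had q-values below 0.05 and were lower, beside 0.510% of the genes listed there. The median fold change of the members was -0.90 and that of all genes was -0.04.

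The third comparison set Mettl3 livers against pair-fed livers, with all 9 libraries and 10229 genes in the model. These groups differ in diet, binge and virus together, whose parts this comparison cannot tell apart. Fst was called higher, beside 13.9% of genes tested, and Angptl8 was called lower, beside 34.9%. Here too Fst passed the filter only through the ethanol groups, where it is high. Neither Fgf21 nor Gdf15 was called in that comparison, and their values are given with their intervals below. The 3 comparisons share libraries: the ethanol-fed livers serve the first and the second, and the pair-fed livers serve the first and the third.

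**Figure D1:**
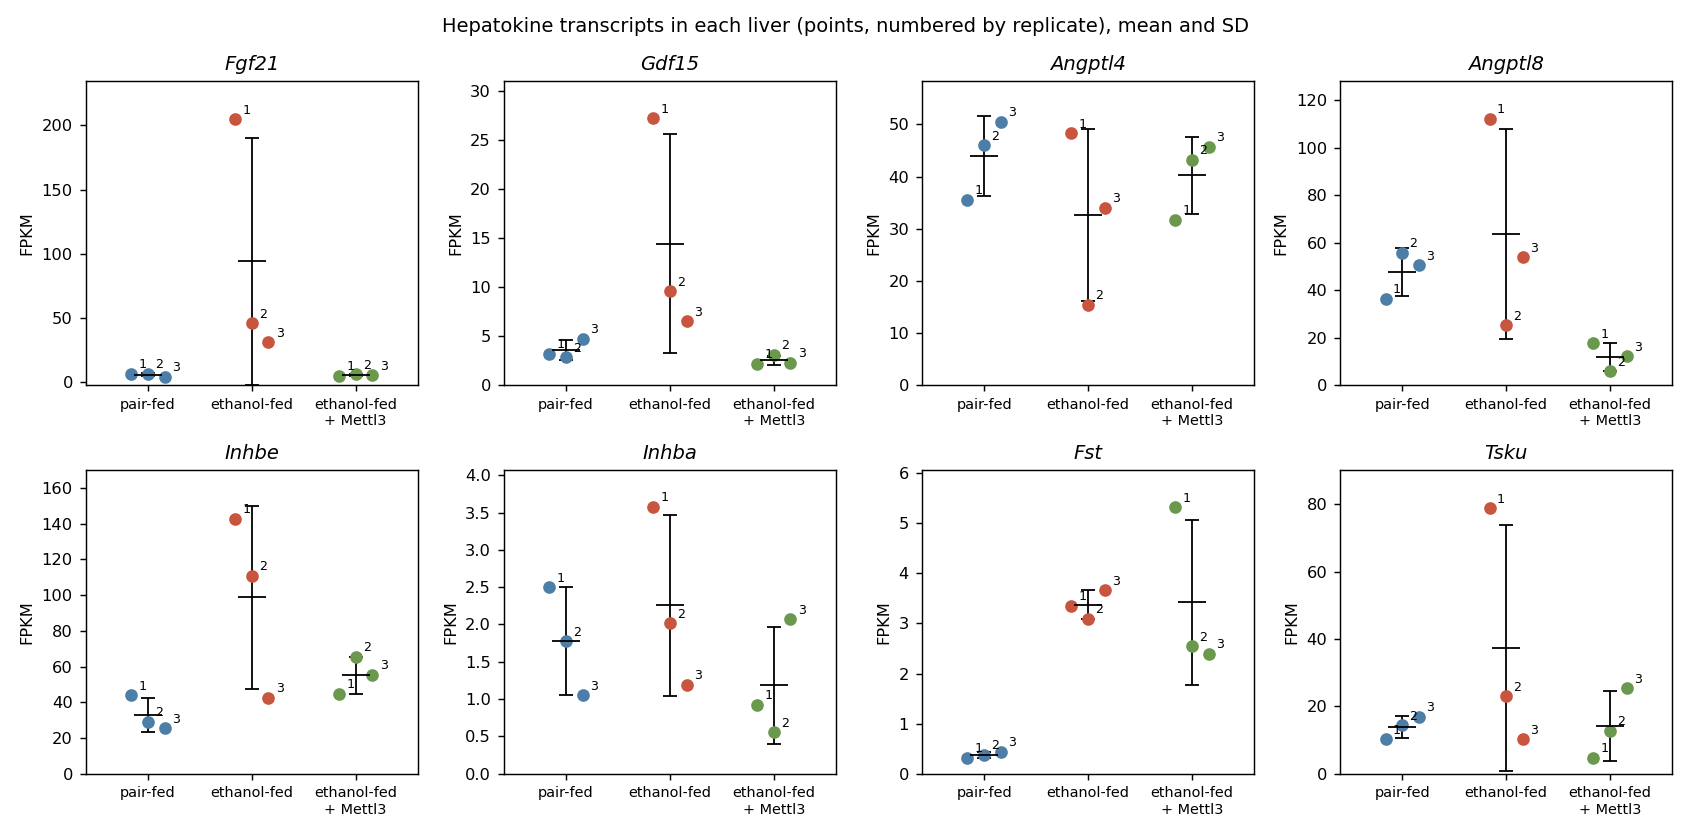
Transcript level (FPKM, vertical axis) of the 8 members in the 3 pair-fed, 3 ethanol-fed and 3 Mettl3 livers; points are livers numbered by replicate, bars are the mean and SD, and the vertical scales differ between genes. Ethanol-fed liver 1 is the highest of the ethanol-fed livers in every panel but Fst, while Fst is low only in the pair-fed livers.

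Fgf21 (Entrez 56636, chromosome 7, 45613890 to 45615490 in GRCm38) measured 6.53, 6.66 and 4.48 FPKM in the pair-fed livers, 205, 45.9 and 31.4 FPKM in the ethanol-fed livers and 5.13, 6.25 and 5.40 FPKM in the Mettl3 livers. All ethanol-fed livers lay above all others, and the pair-fed and Mettl3 ranges overlapped. The group means were 5.89 ± 1.22, 94.1 ± 96.2 and 5.59 ± 0.588 FPKM (SD, n = 3). With ethanol Fgf21 rose by a log2 fold change of 3.32 (SE 0.62, 95% interval 1.87 to 4.76; limma adjusted p = 0.00758). Under ethanol, the Mettl3 livers differed from the control-virus livers by -3.37 (SE 0.62, 95% interval -4.84 to -1.90; unadjusted p = 0.000953, limma adjusted p = 0.497). The authors' deposited table gives a log2 fold change of -3.90 and a q-value of 0.000235 for the same contrast. Without ethanol-fed liver 1, limma gave -2.57 with an adjusted p of 0.0444. Against pair-fed livers the Mettl3 livers differed by -0.05, with a 95% interval from -1.31 to 1.20 (limma adjusted p = 0.947), which holds changes of over 2-fold either way on this scale.

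Gdf15 (Entrez 23886, chromosome 8, 70629393 to 70632470) followed the same order of groups at lower levels. It measured 3.17, 2.81 and 4.70 FPKM in the pair-fed livers, 27.2, 9.54 and 6.49 FPKM in the ethanol-fed livers and 2.18, 3.07 and 2.29 FPKM in the Mettl3 livers. The lowest ethanol-fed liver lay above the highest liver of either other group. Gdf15 rose with ethanol by 1.54 (SE 0.45; limma adjusted p = 0.0336), a call lost without pair-fed liver 1 (adjusted p = 0.0923), 2 (0.124) or 3 (0.0701) or ethanol-fed liver 2 (0.0584). The call was also lost with the low-expression filter removed (adjusted p = 0.0595). Without ethanol-fed liver 1 the value was 0.98 and the call held (adjusted p = 0.00936). The Mettl3 livers differed from the control-virus livers by -1.90 (SE 0.45, unadjusted p = 0.00373, limma adjusted p = 0.641), and the authors' deposited table gives a q-value of 0.000104. Against pair-fed livers the difference was -0.36, with a 95% interval from -1.29 to 0.56 (limma adjusted p = 0.481).

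The order of the ethanol-fed livers was the same for both hormones, liver 1 above liver 2 above liver 3. Over the 9 libraries log2 Fgf21 and Gdf15 correlated at r = 0.96 (rho 0.70), at 0.88 without ethanol-fed liver 1 and at 0.73 without the 2 livers farthest from the median of Fgf21, which were ethanol-fed livers 1 and 2. These points share their libraries and fall into groups, so the value is a description. Ethanol-fed liver 1 held the highest value of the ethanol-fed livers for 7 of 8 members, and for 60.0% of the 10229 genes that pass the filter over 9 libraries. It was the highest of all 9 livers for 6 of 8 members.

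**Figure D2:**
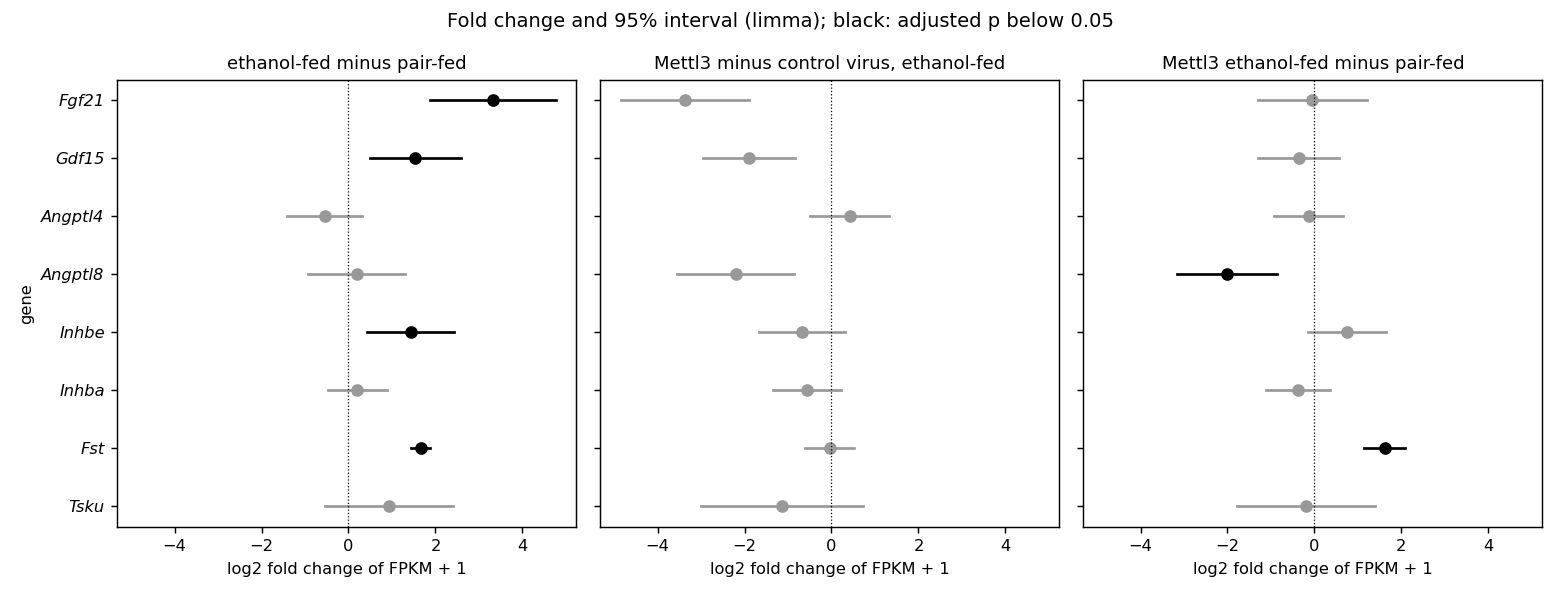
Log2 fold change of FPKM + 1 (horizontal axis) with its 95% interval from limma for each member in the 3 comparisons; black marks an adjusted p below 0.05 and grey marks the rest. Fgf21 lies at 3.32 in the first panel, -3.37 in the second and -0.05 in the third, while Fst lies at 1.66, -0.04 and 1.62.

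Angptl8 (Entrez 624219, chromosome 9, 21835510 to 21837347) differed from these hormones in that ethanol alone gave no call. It measured 36.3, 55.8 and 50.6 FPKM in the pair-fed livers, 112, 25.3 and 53.9 FPKM in the ethanol-fed livers and 17.7, 5.73 and 12.2 FPKM in the Mettl3 livers. Ethanol-fed values spread on both sides of the pair-fed range, and every Mettl3 liver lay below every other liver. The ethanol difference was 0.19 (95% interval -0.92 to 1.31; limma adjusted p = 0.771), and it was -0.33 without ethanol-fed liver 1. Mettl3 livers were lower than pair-fed livers by a log2 fold change of -2.01 (SE 0.51, 95% interval -3.17 to -0.85; limma adjusted p = 0.0116). Against control-virus ethanol-fed livers the difference was -2.21 (SE 0.57, unadjusted p = 0.00596, limma adjusted p = 0.641), and the authors' deposited table gives a q-value of 0.000938. Angptl8 lies inside Dock6 on the opposite strand and shares no exon base with it, and Dock6 measured 0.98 to 2.35 FPKM. Strand use in the counting is not stated.

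Angptl4 (Entrez 57875, chromosome 17, 33774900 to 33781575), a lipoprotein lipase inhibitor known as a target of PPARalpha, gave no call in any comparison. It measured 35.6, 46.0 and 50.5 FPKM in the pair-fed livers, 48.3, 15.4 and 34.0 FPKM in the ethanol-fed livers and 31.7, 43.2 and 45.7 FPKM in the Mettl3 livers. Only ethanol-fed liver 2 stood below the range of the other livers. The differences were -0.55 for ethanol (95% interval -1.41 to 0.32; limma adjusted p = 0.277), 0.42 for Mettl3 against control virus (adjusted p = 0.74) and -0.13 for Mettl3 against pair-fed livers (adjusted p = 0.774). The ethanol value was -0.90 without ethanol-fed liver 1 (adjusted p = 0.063) and -0.10 without ethanol-fed liver 2 (0.738). Of the lipoprotein lipase system and other angiopoietin-like genes, 12 of 14 were tested with ethanol, and 0 were higher and 5 lower (4 after median-ratio scaling, with 1 higher), at a median of -0.35, beside 26.0% of all genes tested called lower. Lipg, endothelial lipase, fell from 4.74 to 0.666 FPKM, Lipc, hepatic lipase, from 79.5 to 40.7, Angptl2 from 4.70 to 2.07 and Angptl6 from 4.32 to 1.96 FPKM in the group means, with limma adjusted p-values between 0.00107 and 0.0211. Lipg needed its pair-fed values to pass the filter.

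**Figure D3:**
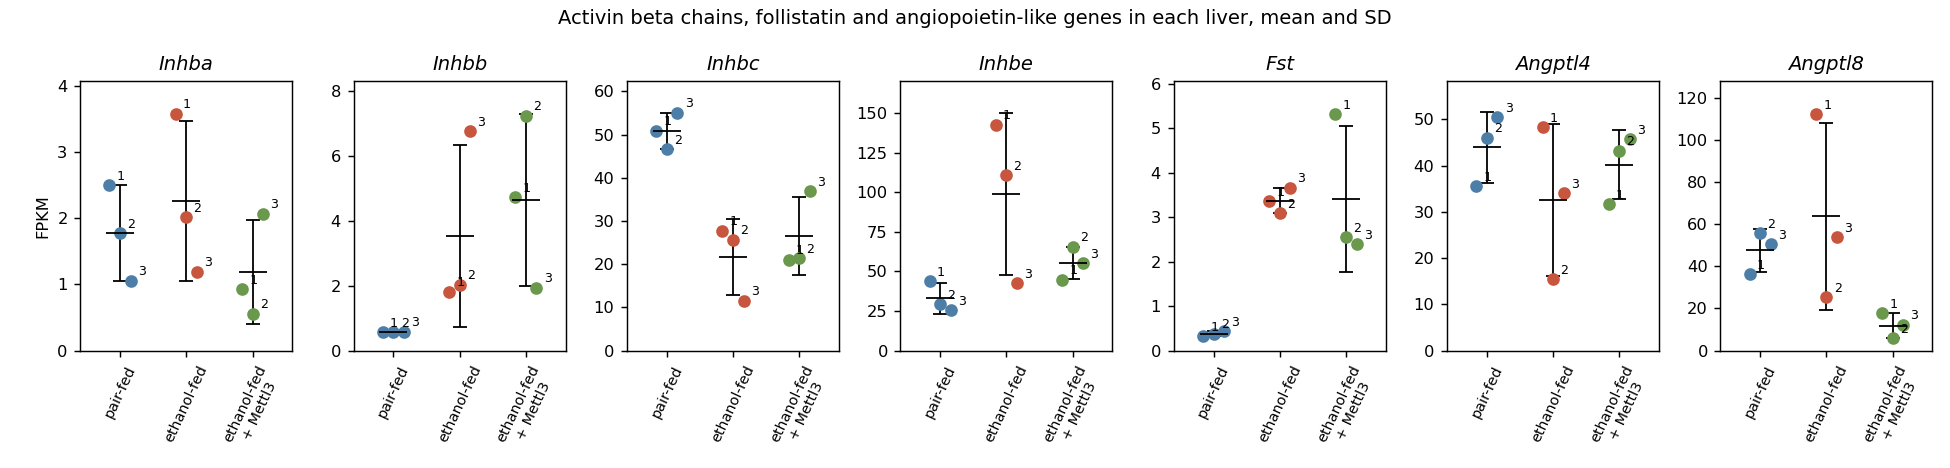
Transcript level (FPKM, vertical axis) of the activin beta chains Inhba, Inhbb, Inhbc and Inhbe, of follistatin (Fst) and of Angptl4 and Angptl8 in each liver; points are livers numbered by replicate, bars are the mean and SD, and scales differ between genes. Inhbb and Fst are lowest in the 3 pair-fed livers, Inhbc is highest there, and Angptl8 is lowest in the 3 Mettl3 livers.

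Among the activin chains, Inhbe (Entrez 16326, chromosome 10, 127349402 to 127351848), which encodes the liver-enriched activin beta E chain, measured 43.9, 29.2 and 25.6 FPKM in the pair-fed livers, 143, 111 and 42.7 FPKM in the ethanol-fed livers and 44.8, 65.5 and 55.3 FPKM in the Mettl3 livers. Ethanol-fed liver 3 lay just below pair-fed liver 1, so those groups overlap, while all Mettl3 livers lay above all pair-fed livers. With ethanol Inhbe rose by 1.43 (SE 0.43, 95% interval 0.43 to 2.43; limma adjusted p = 0.0368). Leaving out pair-fed liver 1 (adjusted p = 0.0528), 2 (0.125) or 3 (0.121) removed the call, as did leaving out ethanol-fed liver 1 (0.0802) or 2 (0.104) and testing with no filter (0.0637). Mettl3 livers differed from pair-fed livers by 0.75 (95% interval -0.15 to 1.65; limma adjusted p = 0.144), with an adjusted p of 0.0481 after median-ratio scaling, 0.0258 in a fit of those 6 libraries alone and 0.0248 without ethanol-fed liver 3. They differed from control-virus ethanol-fed livers by -0.68 (95% interval -1.67 to 0.32; adjusted p = 0.669).

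Inhba (Entrez 16323, chromosome 13, 16004256 to 16031609), the beta A chain of activin A, was expressed at a low level and gave no call. Its values were 2.50, 1.78 and 1.06 FPKM in the pair-fed livers, 3.58, 2.01 and 1.19 FPKM in the ethanol-fed livers and 0.925, 0.555 and 2.07 FPKM in the Mettl3 livers. All 3 ranges overlapped. The differences were 0.20 with ethanol (95% interval -0.48 to 0.88; limma adjusted p = 0.613), -0.57 between the virus groups (adjusted p = 0.654) and -0.37 between Mettl3 and pair-fed livers (adjusted p = 0.36).

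The remaining beta chains moved in opposite directions with ethanol. Inhbb, the beta B chain, measured 0.570, 0.572 and 0.574 FPKM in the pair-fed livers, 1.82, 2.03 and 6.76 in the ethanol-fed livers and 4.73, 7.23 and 1.93 in the Mettl3 livers. It rose with ethanol by 1.36 (limma adjusted p = 0.0235) and stood 1.72 higher in Mettl3 than in pair-fed livers (adjusted p = 0.0108). In both tests it had passed the filter only through groups in which it is high. Inhbc, the beta C chain and the chromosome 10 neighbour of Inhbe, fell with ethanol by 1.28 (limma adjusted p = 0.0157), from 50.9 ± 4.21 to 21.6 ± 8.83 FPKM (SD, n = 3), and was 26.4 ± 9.02 FPKM in the Mettl3 livers. Inhbe and Inhbc, which lie side by side on chromosome 10, thus had called changes of opposite sign. Inhbc shares 268 exon bases with the antisense gene Gm47200, whose reads cannot be told apart from its own without a stated strand.

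Fst (Entrez 14313, chromosome 13, 114452262 to 114458989) was the member with the least spread among ethanol-fed livers. It measured 0.322, 0.383 and 0.436 FPKM in the pair-fed livers, 3.36, 3.09 and 3.67 FPKM in the ethanol-fed livers and 5.32, 2.55 and 2.40 FPKM in the Mettl3 livers. Both ethanol groups lay wholly above the pair-fed livers and overlapped each other. Fst rose with ethanol by 1.66 (SE 0.093; limma adjusted p = 0.000317), and the ratio of mean FPKM was 8.87. In Mettl3 livers it was higher than in pair-fed livers by 1.62 (SE 0.21; limma adjusted p = 0.000909). In both tests Fst passed the filter only through the groups in which it is high; with no filter the adjusted p-values were 0.00102 and 0.00165. The size depends on the pseudocount and test, with log2 fold changes of 2.86 and 2.79 at a pseudocount of 0.1 and 3.14 and 3.06 with limma-voom. The virus groups differed by -0.04, with a 95% interval from -0.61 to 0.52 (limma adjusted p = 0.961), and by 0.02 after median-ratio scaling. An antisense gene, Gm47040, shares 115 exon bases with Fst in GENCODE M21, and without a stated strand its reads cannot be told apart from those of Fst. Of the other activin chains, receptors, Smads and binding proteins, 14 of 19 were tested with ethanol, and 2 were higher and 5 lower (3 lower after scaling), at a median of -0.26, beside 10.0% higher and 26.0% lower over all genes. Acvr1b, an activin type I receptor, rose from 2.80 to 6.24 FPKM, while Smad2, a signal carrier of that receptor, fell from 1.82 to 0.998 and Smad7, an inhibitor of the pathway, from 2.64 to 1.18 FPKM (limma adjusted p between 0.00914 and 0.0126). Smad2 needed its pair-fed values to pass the filter.

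Tsku (Entrez 244152, chromosome 7, 98350668 to 98361390) gave no call in any comparison. It measured 10.3, 14.5 and 17.0 FPKM in the pair-fed livers, 79.0, 23.1 and 10.2 FPKM in the ethanol-fed livers and 4.72, 12.8 and 25.3 FPKM in the Mettl3 livers. The ethanol-fed group held both the highest value of all and one at the lower edge of the pair-fed range. The differences were 0.93 with ethanol (95% interval -0.55 to 2.40; limma adjusted p = 0.28), -1.13 between the virus groups (adjusted p = 0.681) and -0.20 between Mettl3 and pair-fed livers (adjusted p = 0.826). Leaving out ethanol-fed liver 1 gave an ethanol difference of 0.17, and leaving out ethanol-fed liver 3 gave 1.58.

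Ranked by mean FPKM per group, the pair-fed livers ran from Angptl8 at 47.5 and Angptl4 at 44.0 through Inhbe at 32.9, Tsku at 13.9, Fgf21 at 5.89, Gdf15 at 3.56 and Inhba at 1.78 to Fst at 0.380. Neighbours overlapped in their ranges for Angptl8 and Angptl4, Angptl4 and Inhbe, and Fgf21 and Gdf15. In the ethanol-fed livers Inhbe at 98.7 and Fgf21 at 94.1 came first, Angptl8 at 63.8, Tsku at 37.4, Angptl4 at 32.6 and Gdf15 at 14.4 followed, and Fst at 3.37 and Inhba at 2.26 came last. There only Gdf15 and Fst were neighbours whose ranges did not overlap. In the Mettl3 livers the order was Inhbe at 55.2, Angptl4 at 40.2, Tsku at 14.3, Angptl8 at 11.9, Fgf21 at 5.59, Fst at 3.42, Gdf15 at 2.51 and Inhba at 1.18. The ranges of Angptl4 and Tsku, and of Gdf15 and Inhba, did not overlap there.

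Of the stress genes of the ATF4 and CHOP list, whose factors read the element shown above, 18 were tested with ethanol. Among them 9 were higher and 0 lower, at a median of 0.87, beside 10.0% of all genes called higher. After median-ratio scaling 13 were higher, beside 1796 of all 10032 genes tested. Atf3 and Aldh18a1 passed the filter only through their ethanol-fed values, so they could only be called higher. Ddit3, which encodes CHOP, measured 2.57, 2.28 and 1.99 FPKM in the pair-fed livers, 26.0, 16.0 and 15.4 in the ethanol-fed livers and 10.8, 8.46 and 5.86 in the Mettl3 livers. Its groups did not overlap, and it rose with ethanol by 2.58 (limma adjusted p = 0.000504). Ddit4, a stress-induced inhibitor of mTORC1, measured 1.39, 1.27 and 1.66 FPKM, then 28.4, 14.5 and 8.37, then 4.89, 5.00 and 2.36 in the same order of groups, and it rose with ethanol by 2.73 (adjusted p = 0.00254). Atf4 itself rose from 43.6 ± 3.46 to 86.7 ± 6.55 FPKM (SD, n = 3; limma adjusted p = 0.00125) and was 65.8 ± 17.9 FPKM in the Mettl3 livers. Chac1, a glutathione-degrading enzyme, rose from 1.77 ± 0.348 to 17.6 ± 13.3 FPKM (limma adjusted p = 0.00515) and was 5.59 ± 1.18 FPKM in the Mettl3 livers. With Mettl3 against control virus the list had a median of -0.65, beside -0.04 over all genes. By limma 0 of 18 members were called, and 9 were below an unadjusted p of 0.05, beside 7.45% of all genes tested. Between Mettl3 and pair-fed livers 7 of 19 tested members were higher and 2 lower, beside 13.9% and 34.9% of all genes. After scaling 8 were higher and 1 lower, beside 2597 and 2168 of all 10180 genes tested. Atf3, Aldh18a1 and Psat1 passed the filter of that fit only through the ethanol groups.

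**Figure D4:**
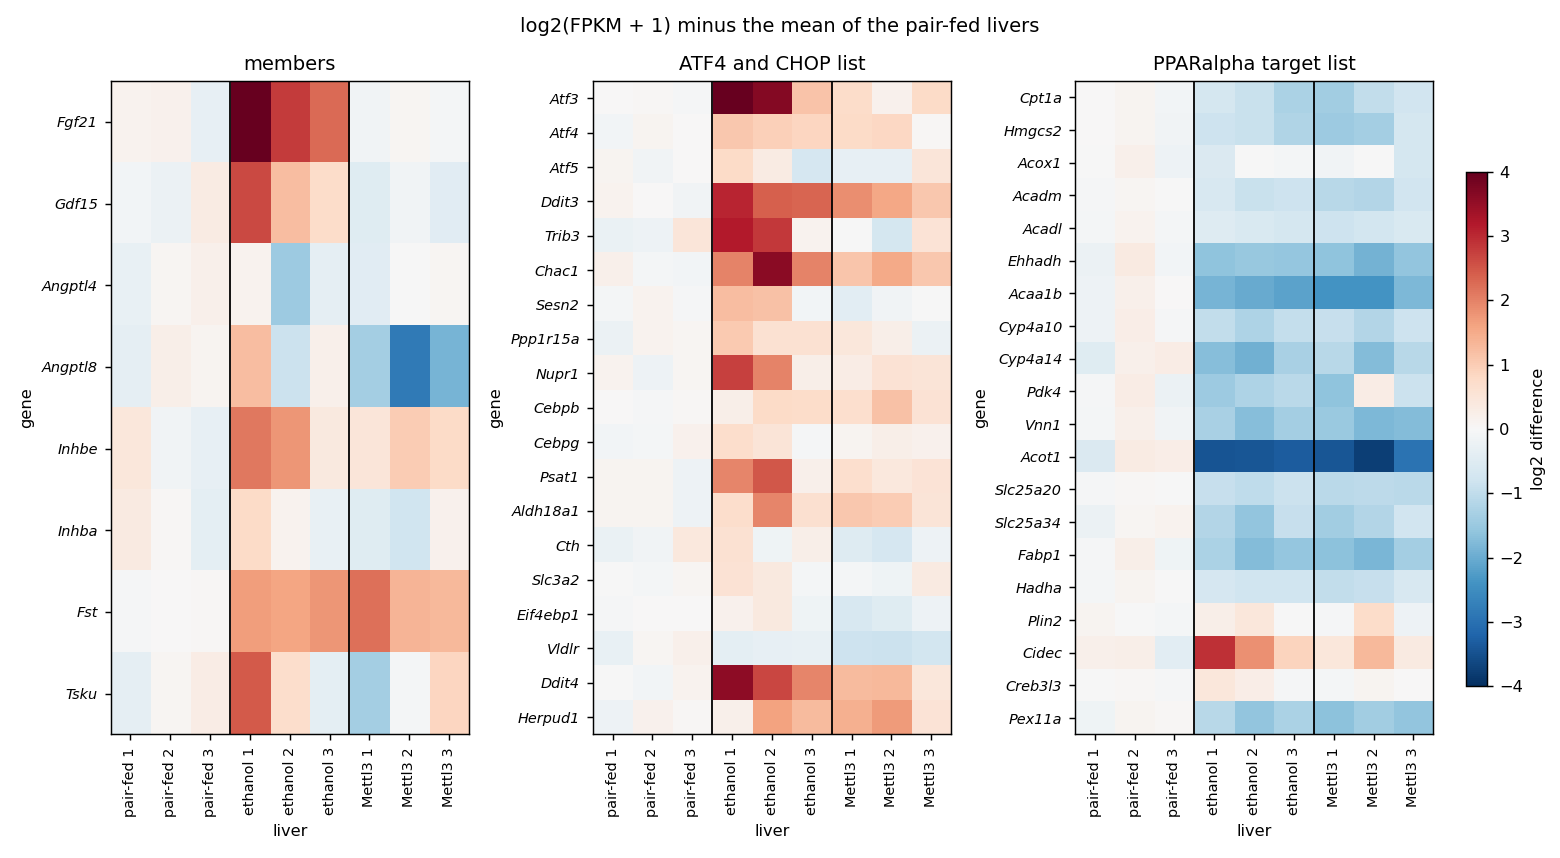
Log2(FPKM + 1) minus the mean of the pair-fed livers (colour, from -4 to 4, larger values shown at the end of the scale) in each of 9 livers (columns) for the members, the ATF4 and CHOP list and the PPARalpha target list (rows); columns named Mettl3 are ethanol-fed livers with the Mettl3 virus. Fgf21, Gdf15, Ddit3 and Ddit4 are high in the ethanol-fed columns, and most PPARalpha targets are low in both ethanol groups.

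Most transcripts of the PPARalpha axis, which drives Fgf21 in fasting, were lower with ethanol. The part of PPARalpha, ATF4 or CHOP in the members' values was not tested. Ppara measured 41.0, 50.4 and 46.4 FPKM in the pair-fed livers, 18.0, 10.8 and 10.2 in the ethanol-fed livers and 7.73, 16.5 and 23.0 in the Mettl3 livers. It fell with ethanol by 1.78 (limma adjusted p = 0.00177). Of 20 tested PPARalpha targets 16 were lower and 1 higher with ethanol (3 higher after scaling), at a median of -1.02 and beside 26.0% of all genes called lower, and between Mettl3 and pair-fed livers 15 of 20 were lower and 0 higher, beside 34.9% of all genes called lower there. In the ethanol test Cidec passed the filter only through its ethanol-fed values and could only be called higher. Slc25a34 needed its pair-fed values to pass. Acot1, a peroxisome proliferator-induced thioesterase, fell from 46.6 to 3.32 FPKM, Acaa1b, a peroxisomal thiolase, from 352 to 86.7, Vnn1, vanin, from 58.3 to 20.7 and Slc25a20, the carnitine carrier, from 93.8 to 48.5 FPKM in the group means (limma adjusted p between 0.000424 and 0.0011). Of 11 tested transcription factors known to act on Fgf21, 1 was higher (2 after scaling) and 6 were lower (3 after scaling), beside 10.0% and 26.0% of all genes. Atf4 was the one that rose, and Nr0b2, the nuclear repressor SHP, fell from 13.4 to 2.42 and Nr1d1, the clock repressor REV-ERBalpha, from 43.4 to 11.0 FPKM (limma adjusted p of 0.00129 and 0.00183). In this list Ppargc1a passed the filter only through its pair-fed values.

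On the receptor side of FGF21, 7 of 12 listed genes were tested with ethanol, and 0 were higher and 2 lower, a share close to the 26.0% of all genes. Klb, beta-klotho, measured 10.1, 12.2 and 15.6 FPKM in the pair-fed livers, 7.84, 2.62 and 2.98 in the ethanol-fed livers and 1.64, 0.594 and 3.73 in the Mettl3 livers. It fell with ethanol by 1.42 (limma adjusted p = 0.017), and Fgfr2 fell from 8.83 to 3.44 FPKM (adjusted p = 0.00648). Fgfr4, the main FGF receptor of hepatocytes, measured 10.7 ± 0.273 and 7.85 ± 1.66 FPKM in pair-fed and ethanol-fed livers (SD, n = 3; limma adjusted p = 0.0588). Among the kin and processing genes of GDF15, 9 of 13 were tested, and 2 were higher (3 after scaling) and 1 lower, beside the same shares of all genes. Mmp14, a membrane protease, rose from 14.1 to 19.0 and Gdf10 from 2.26 to 3.99 FPKM, while Bmp6, the iron-sensing ligand upstream of hepcidin, fell from 1.94 to 0.716 FPKM (limma adjusted p between 0.00484 and 0.0401). Bmp6 passed the filter only through its pair-fed values, so it could only be called lower. Of 18 tested other liver-secreted regulators, 4 were higher and 5 lower, beside 10.0% and 26.0% of all genes. After scaling 5 were higher and 2 lower, beside 1796 and 1663 of all 10032 genes tested. Igfbp1, a stress-responsive IGF-binding protein, measured 23.3, 57.4 and 26.9 FPKM in the pair-fed livers, 876, 969 and 793 in the ethanol-fed livers and 478, 690 and 159 in the Mettl3 livers. It rose with ethanol by 4.69 (limma adjusted p = 0.000424), while Igfbp2 fell from 195 to 78.3 and Enho, adropin, from 8.50 to 3.19 FPKM and Smoc1 rose from 33.2 to 48.1 FPKM (adjusted p between 0.00195 and 0.0149). In none of these lists was a gene called between the virus groups by limma. At an unadjusted p below 0.05 there were 1 of 7 FGF receptor genes, 2 of 10 transcription factors and 1 of 8 GDF15 kin genes. The same cutoff held 1 of 11 lipase genes, 0 of 14 activin genes, 0 of 19 PPARalpha targets and 2 of 18 other regulators. Over all genes tested between the virus groups the share was 7.45%.

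Markers of some other cells differed between the groups, while the ranges of others overlapped. Sums were taken over markers listed in both tables. The summed level of 8 neutrophil markers was 7.50 to 11.7 FPKM in pair-fed, 9.36 to 75.8 in ethanol-fed and 49.6 to 108 in Mettl3 livers. Ethanol-fed liver 1, which had the most Fgf21 and Gdf15, had the 9.36, within the pair-fed range. The 10 Kupffer cell markers summed to 311 to 354, 170 to 251 and 150 to 263 FPKM, and the 10 sinusoidal endothelial markers to 154 to 175, 117 to 132 and 126 to 148 FPKM, in the same order of groups. Stellate cell markers summed to 187 to 221, 155 to 190 and 164 to 177 FPKM, cholangiocyte markers to 28.4 to 41.3, 24.2 to 38.9 and 24.9 to 46.9 FPKM and 3 adipocyte markers to 0.850 to 2.44, 1.26 to 2.67 and 0.979 to 1.12 FPKM. Most of the stellate sum was Dcn, which averaged 108, 104 and 106 FPKM in the same order of groups. Most of the cholangiocyte sum was Spp1, at 28.3, 28.8 and 31.5 FPKM. None of the summed markers was at 0 in every library, and 1 neutrophil and 2 adipocyte markers were at 0 in some. With ethanol 8 of 10 Kupffer, 7 of 10 endothelial (4 after scaling) and 2 of 10 stellate markers (0 after scaling) were called lower, beside 26.0% of all genes, and 1 of 4 tested neutrophil, 3 of 9 hepatocyte, 1 of 10 endothelial and 1 of 4 cholangiocyte markers higher, beside 10.0%. The cholangiocyte marker Sox9 passed the filter only through its ethanol-fed values, so it could only be called higher. The part of these cell markers in the members' values was not tested.

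For each member the 3 genes with the highest correlation over the 9 libraries were sought among 5352 genes with a mean of at least 5 FPKM. These correlations share libraries and group differences and are descriptions. For Fgf21 they were Tcim (r = 0.97, rho 0.78), F2r (0.97, rho 0.55) and Gadd45a (0.96, rho 0.83). Without ethanol-fed livers 1 and 2 the r values were 0.94, 0.92 and 0.82. Gadd45a, a stress and DNA damage gene, measured 5.27, 4.53 and 4.15 FPKM in the pair-fed livers, 33.2, 21.1 and 8.43 in the ethanol-fed livers and 3.51, 3.34 and 2.35 in the Mettl3 livers, and it was also among the nearest for Gdf15 (0.95). Dmgdh (0.96), a choline breakdown enzyme, and Dync1li1 (0.95, and 0.64 without ethanol-fed livers 1 and 2) were the others for Gdf15. Fst was nearest to Gfra1, Mlx and Pfkfb2 (0.98, 0.98 and 0.97), which like Fst had similar means in both ethanol groups. Gfra1, a GDNF family co-receptor, averaged 32.9, 74.4 and 78.7 FPKM in pair-fed, ethanol-fed and Mettl3 livers. Inhbe was nearest to Gdap2, Tubb2a and Thumpd3 (0.96, 0.96 and 0.95), and Tubb2a, a tubulin, averaged 19.5, 70.1 and 29.7 FPKM. Angptl8 was nearest to Inpp5a, Myo1e and Uox (0.97, 0.97 and 0.96), and Uox, urate oxidase, averaged 1122, 1073 and 744 FPKM. Inhba was nearest to Pigp, Cstf1 and Ermp1 (0.96, 0.95 and 0.95), and Tsku to Mttp, Cald1 and Ank (0.97, 0.95 and 0.94). For Angptl4 the values were 0.91 for B3gat3, 0.90 for Mrpl32 and 0.89 for Ndufb1, and 0.51 to 0.69 without ethanol-fed liver 2 and Mettl3 liver 1.

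**Figure D5:**
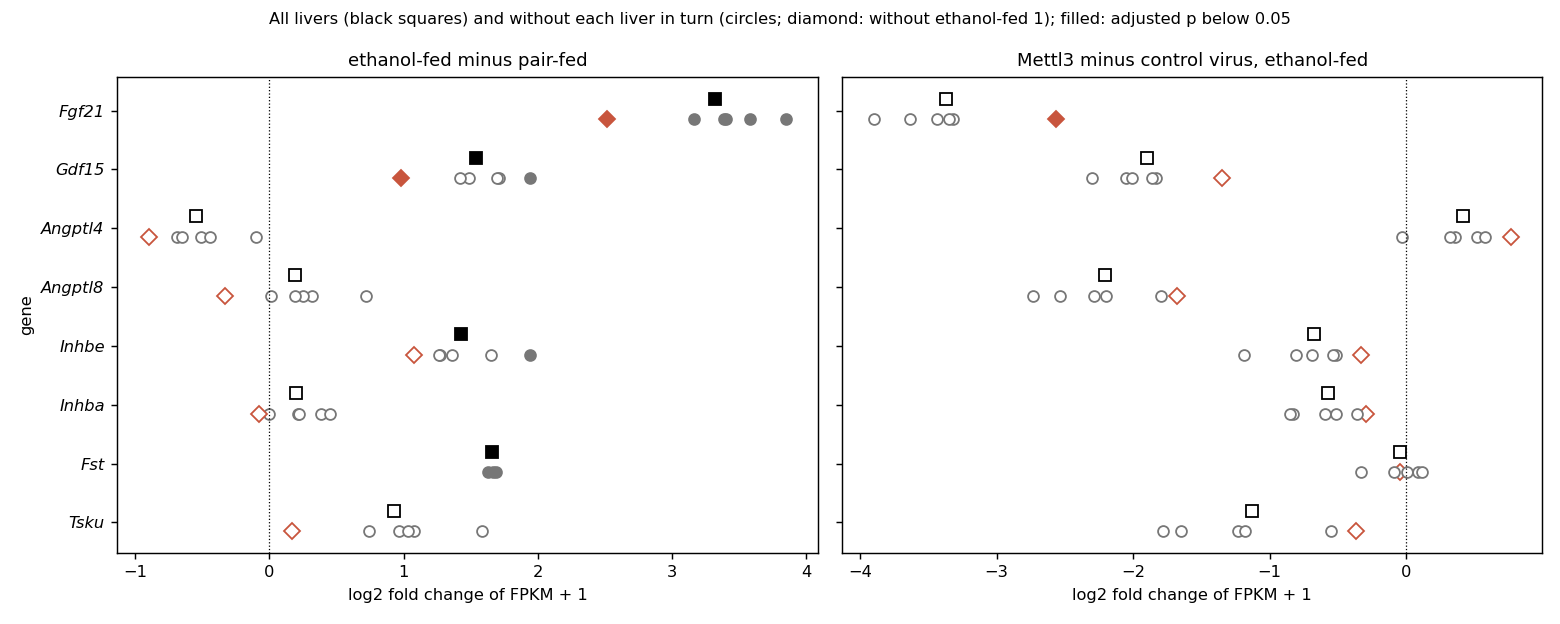
Log2 fold change of FPKM + 1 (horizontal axis) for each member with all livers (squares) and without each liver in turn (circles; the diamond is without ethanol-fed liver 1), for the ethanol and the Mettl3 comparison; filled symbols have an adjusted p below 0.05. Fgf21 stays called in the ethanol panel between 2.52 and 3.85, and in the Mettl3 panel it is called only without ethanol-fed liver 1.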

How the data were processed

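The submitters' processing notes name fastp, HISAT2, HTSeq and the mm10 genome; versions and the strand setting are not given in the sources used here. The authors deposited 2 tables, of ethanol-fed with pair-fed and of Mettl3 with control virus, with FPKM for every library. Per the file headers, a signal column holds the mean of size-factor normalized reads, and the authors' linear fold (ratio), its log2 and the p-value and q-value columns come with it, from DESeq2. The tables held 16842 and 16470 genes, 16266 in both, joined on the shared ethanol-fed columns, which differed by a relative 1.08e-06 at most.

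FPKM were tested with limma 3.58.1 in R 4.3.3 (lmFit, eBayes with trend and robust) on log2(FPKM + 1), a pseudocount of 1, keeping genes that reached 1 FPKM in 3 or more libraries, adjusted by Benjamini-Hochberg at a threshold of 0.05. Ethanol and Mettl3 effects were fitted on their own 6 libraries and Mettl3 against pair-fed livers on all 9. A log2 fold change is given with its SE and 95% interval. Whole reads came out of the signal and FPKM steps for 100% of genes within 0.05 and served for limma-voom, an alternative; no count test of the planned kind was run. Promoter windows were RefSeq GRCm38.p6, gene models GENCODE M21. Python 3.11.15 with pandas 2.3.3, numpy 2.4.6 and matplotlib 3.10.9 made tables and figures.

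Samples were grouped by their titles, which name no virus; the viruses come from the series' description. The members, gene lists, tests and motifs were chosen with earlier results of these data known. Named were Mettl3, the 8 members, up to 4 genes per list with the smallest unadjusted p in the ethanol comparison and, per member, the 3 genes of highest correlation. Inhbb was chosen in addition as a family member. Alb, Dcn, Spp1 and genes named only for how they passed the filter were added later. The values of 1 gene of the lists are not reported here. Members called in no comparison are given by their values.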

Additional observations from a re-analysis of the deposited data

How the results depend on the processing

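Over 399 alternative member fold changes, 365 kept their direction and their side of the threshold, 12 lost a call, 5 gained one and 17 changed sign. The count of 4 members called with ethanol became 2 with no filter on low values and ran from 1 to 3 when each liver was left out in turn (1 without ethanol-fed liver 2, 3 without ethanol-fed liver 3, otherwise 2). Fst was not tested there without any single ethanol-fed liver, since then only 2 livers reach the filter. The count of 0 with Mettl3 against control virus ran from 0 to 1 with a liver left out, and the count of 2 with Mettl3 against pair-fed livers from 2 to 3. That count was 1 at a mean FPKM of at least 5, where Fst was not tested, and 3 after median-ratio scaling. With a liver left out, the sign changed for Angptl8 (-0.33 to 0.72) and Inhba (-0.079 to 0.45) with ethanol, for Angptl4 (-0.030 to 0.76) and Fst (-0.33 to 0.12) with Mettl3 against control virus, and for Angptl4 (-0.27 to 0.028), Fgf21 (-0.21 to 0.033) and Tsku (-0.72 to 0.38) with Mettl3 against pair-fed livers. Under median-ratio scaling Fst was 0.022 with Mettl3 against control virus, and against pair-fed livers Fgf21 was 0.18, Angptl4 0.14 and Tsku 0.047. Under limma-voom with that scaling, added after the data were seen, Fgf21 was 0.17 and Angptl4 0.10. None of these members was called in the comparison in which its sign changed. The cause of these changes was not tested. Of the genes called with ethanol, 1009 were higher and 2616 lower, against 1796 and 1663 after scaling, and with Mettl3 against pair-fed livers 1424 and 3572 against 2597 and 2168. With the replicate number as a block, 3, 0 and 2 members were called; Gdf15 lost its ethanol call (adjusted p = 0.066). Livers of the same number correlated in their deviations at -0.41 to 0.39, over 0.1 in 2 of 9 pairs, so the numbers were not treated as pairs. The planned edgeR and DESeq2 alternatives were not run, because the deposited signal columns alone did not give whole reads for nearly all genes; reads were whole only when these columns and the FPKM were combined. Of the called members Fst rests on the fewest reads, at least 35 in a pair-fed liver.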
